A study of Mus musculus with 8 samples.

Results

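The FGF ligands and receptors described here are 9 genes chosen by symbol, namely the ligands Fgf2, Fgf5, Fgf7, Fgf10 and Fgf18 and the receptors Fgfr1, Fgfr2, Fgfr3 and Fgfrl1. All 9 were among the 15111 genes of the expression table, which holds 18 genes of the FGF family in all. The comparison was made to see whether skin fibroblasts without their own TGFβ1 express less of genes that act on endothelial cells. Dermal fibroblasts were taken from the back skin of mice at 10 weeks of age. Per the methods the cells were first cultured in medium with serum, and then for 72 h without serum on fibronectin. They were sequenced as bulk RNA, with 4 libraries from each of 2 groups. The genotype of control mice was Tgfb1fl/fl (both alleles floxed), without Cre. TGFβ1FKO mice carried the same alleles with Col1a2-CreERT, a Cre that becomes active with tamoxifen and is limited to cells in which the Col1a2 promoter is active. Both groups were fed tamoxifen, which for TGFβ1FKO mice began in week 4, so feeding does not separate them, whereas the presence of Cre does. Neither the labels nor the methods say that each library came from a separate mouse, so p-values measure the spread between these libraries, which may be partly technical.

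Fibroblast growth factors are secreted proteins that bind receptor tyrosine kinases together with heparan sulfate on the cell surface, and the bound receptors signal through FRS2, RAS and the MAP kinases. In skin, the dermis makes ligands that act on the epidermis and the hair follicle, and FGF5 is known as the signal that ends the growth phase of the hair cycle. Signalling raises genes of its own feedback, among them the Sprouty and DUSP inhibitors.

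The reads recovered on the listed genes summed to 21806579, 18103121, 16988998 and 19705522 in control libraries 1 to 4, and to 19035441, 18849394, 23071528 and 17445002 in TGFβ1FKO libraries 1 to 4. Normalised counts are these reads scaled by each library's size factor, so 1 read was worth between 0.830 and 1.11 normalised counts. All 12 pairs of libraries within a group differed beyond the noise of sampling, with chi-square values between 4.89 and 19.9 per degree of freedom, so none was a copy of another, which does not show that they came from separate mice. Tgfb1, the deleted gene (ENSMUSG00000002603, chr7:25687002-25705077 of GRCm38), had 1401, 1298, 1483 and 1314 normalised counts in the control libraries. In the TGFβ1FKO libraries it had 326.4, 259.9, 228.4 and 294.7. Every TGFβ1FKO library lay below every control library, so the labels held, and 20.2% of the control mean was left. Counts per gene do not separate whole Tgfb1 transcripts from any that the deleted allele still gives.

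A gene was called when limma's Benjamini-Hochberg adjusted p over all 15111 genes was under 0.05 and its log2 fold change of TGFβ1FKO over control was over 0.6 in size, on the scale of log2(normalised count + 1). By this rule 1 of the 9 genes was called, Fgf5, which was lower, and 0.086% of all genes were called. The count models run on the recovered reads called the same 1 of 9. Of all genes, edgeR called 0.132%, DESeq2 against a log2 fold change of 0 called 0.371%, and DESeq2 against 0.6 called 0.0993%. The groups did not overlap in 1 of the 9 genes, again Fgf5, and in 3.79% of all genes. At an unadjusted p under 0.05 there were 3 of the 9, Fgf5, Fgf10 and Fgfr2, and 7.46% of all genes. The median log2 fold change of the 9 was -0.01, and that of all genes 0.0031, with 5 of the 9 lower and 4 higher.

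**Figure D1:**
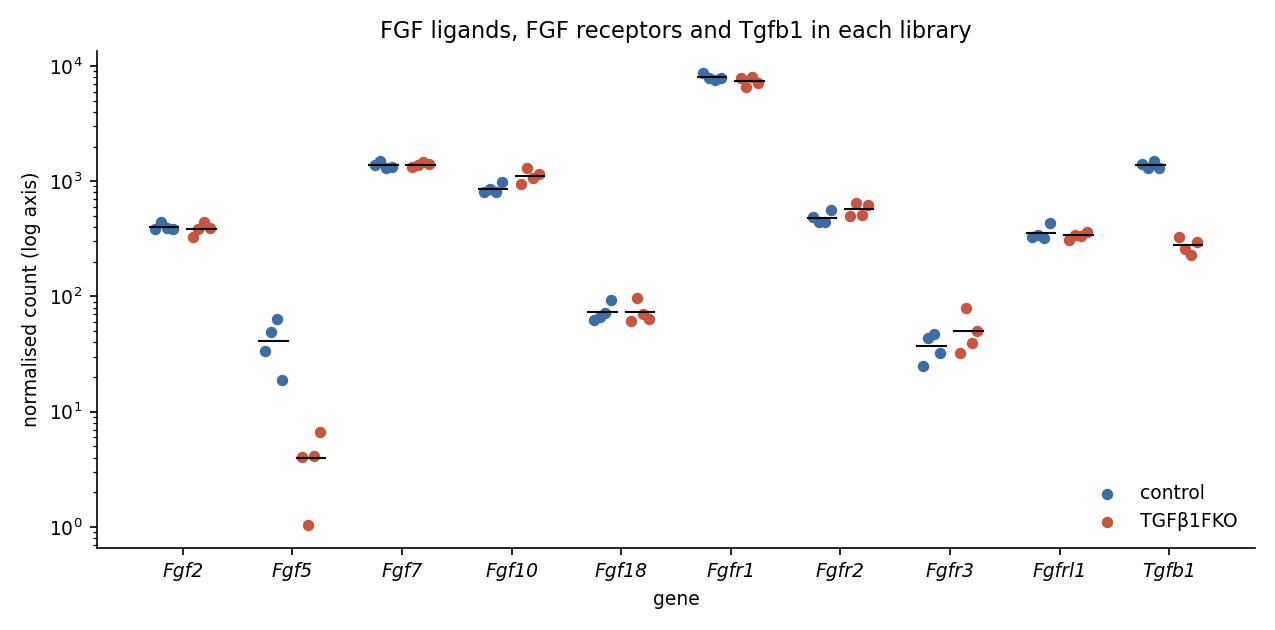
Normalised counts (log axis) of the 9 FGF genes and of Tgfb1, where each point is 1 library, blue for control and red for TGFβ1FKO, and black lines are group means. The colours separate for Fgf5, with control libraries at 18.8 to 64.3 and TGFβ1FKO libraries at 1.04 to 6.65, and for Tgfb1, and they overlap for the other 8 FGF genes.

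Fgf5 (ENSMUSG00000029337, chr5:98254184-98277030 of GRCm38, plus strand) shared no exon with another annotated gene. It had 33.55, 48.9, 64.3 and 18.8 normalised counts in control libraries 1 to 4. In TGFβ1FKO libraries 1 to 4 it had 4.05, 1.04, 4.15 and 6.65. Every TGFβ1FKO library was below every control library, control library 4 was the lowest and control library 3 the highest of the controls, and TGFβ1FKO library 2 was the lowest of all. Means and SDs over 4 libraries were 41.4 ± 19.6 for control and 3.97 ± 2.30 for TGFβ1FKO fibroblasts, or 9.60% of the control mean. The log2 fold change was -3.105 (SE 0.465), with a 95% interval from -4.11 to -2.10 (adjusted p = 0.033, limma), lower in 4 of 4 libraries. A two-sided exact permutation test over libraries gave p = 0.0286, the smallest that 4 against 4 can give.

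These values rested on few reads. The control libraries held 39, 46, 58 and 19 reads of Fgf5, and the TGFβ1FKO libraries held 4, 1, 5 and 6. Summed over libraries, 162 reads in control had an exact Poisson 95% interval of 138 to 189, and 16 reads in TGFβ1FKO fibroblasts had one of 9.15 to 26.0. The intervals cover counting error only, and that of the 1 read in TGFβ1FKO library 2 reached from 0.0253 to 5.57 reads. Fgf5 was thus low but not at 0 in each TGFβ1FKO library.

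The call of Fgf5 depended on which library was left out. Without control library 1, 2 or 3 the log2 fold change was -3.16, -2.98 or -2.85 and the adjusted p in limma 0.0829, 0.131 or 0.214. Without TGFβ1FKO library 2, 3 or 4 it was -2.725, -3.17 or -3.36 with an adjusted p in limma of 0.0528, 0.0665 or 0.0505. The gene was called without control library 4 (-3.43, adjusted p = 0.00682, limma) and without TGFβ1FKO library 1 (-3.16, adjusted p = 0.0491, limma). Fgf5 was lower in TGFβ1FKO fibroblasts in all 8 cases.

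**Figure D2:**
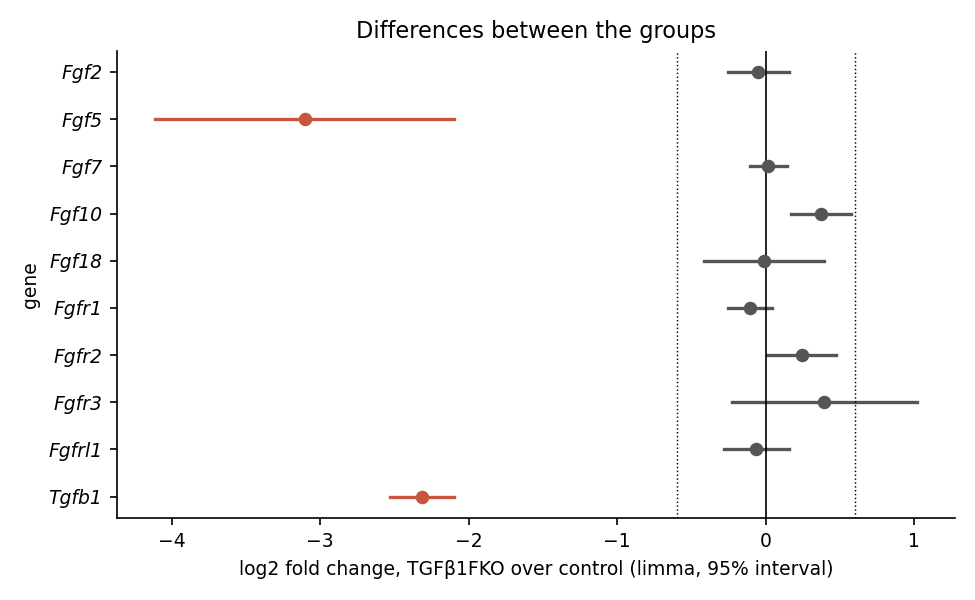
Log2 fold change of TGFβ1FKO over control from limma for each FGF gene and Tgfb1, with bars for the 95% interval, red for called genes and dotted lines at 0.6 in each direction. Fgf5 at -3.105 and Tgfb1 at -2.31 lie far to the left, and the intervals of Fgf10 (0.17 to 0.575) and Fgfr2 (0.01 to 0.47) lie above 0 although neither gene was called.

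The 250 bases before the annotated start are shown for Fgf5, the ligand that was called, and for Fgf7, the most abundant ligand, whose groups overlapped. They are RefSeq sequences of GRCm38.p6, both on the plus strand, at chr5:98253934-98254183 for Fgf5 and chr2:126034408-126034657 for Fgf7. Capitals mark the letters CAGAC, 1 of the sequences that SMAD proteins are known to bind, and GGGCGG, the GC box, each searched on both strands. Other sequences that SMAD proteins may bind were not searched.
Fgf5: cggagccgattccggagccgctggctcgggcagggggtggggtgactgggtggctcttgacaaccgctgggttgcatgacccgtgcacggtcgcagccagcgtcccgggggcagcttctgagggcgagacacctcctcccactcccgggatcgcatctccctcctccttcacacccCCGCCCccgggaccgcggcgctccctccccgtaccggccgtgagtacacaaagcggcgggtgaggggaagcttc
Fgf7: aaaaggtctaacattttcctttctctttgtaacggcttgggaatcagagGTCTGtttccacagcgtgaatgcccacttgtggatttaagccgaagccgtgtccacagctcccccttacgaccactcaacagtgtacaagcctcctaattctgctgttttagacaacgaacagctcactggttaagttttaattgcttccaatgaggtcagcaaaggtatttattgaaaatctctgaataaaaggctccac
The Fgf5 stretch held 1 GC box and no CAGAC, and 70.8% of its bases were G or C. The Fgf7 stretch held 1 CAGAC, on the minus strand, and no GC box, and 43.6% of its bases were G or C, beside a median of 52.4% over all starts. Of 32851 starts, 42.2% held CAGAC and 32.7% held GGGCGG within the same length. The table matched 8 of the 9 genes, of which 3 had CAGAC and 6 had GGGCGG. A match in this window describes letters only.

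Fgf5 was also placed among genes with like values. Over 13862 genes with a mean of at least 10 normalised counts, the root-mean-square difference from Fgf5 was taken over the 8 libraries in log2 values centred on each gene's mean. The median was 1.70, and the 5 smallest were 0.183 for Sox10, 0.413 for Gjc3, 0.472 for Heyl, 0.51 for Cadm1 and 0.531 for Sema4f. Sox10, a transcription factor of neural crest and Schwann cells, had 132.5, 147.7, 207.4 and 72.1 normalised counts in control libraries 1 to 4. In TGFβ1FKO libraries 1 to 4 it had 19.3, 7.25, 18.3 and 21.1. Its highest and lowest library in each group were those of Fgf5. This follows in part from choosing Sox10 by its likeness over the same libraries. In the TGFβ1FKO libraries the order of Fgf5 rested on 1 to 6 reads. Gjc3, a gap junction gene of myelinating glia, had control and TGFβ1FKO means of 25.2 ± 8.27 and 2.58 ± 2.10 (SD, n = 4 each). Heyl, a Notch target, had means of 44.45 ± 20.7 and 6.68 ± 2.56 (SD, n = 4 each). Cadm1, a cell adhesion gene, had 75.4 ± 31.0 and 15.2 ± 5.57, and Sema4f, a semaphorin, 106.1 ± 55.4 and 22.3 ± 7.40 (SD, n = 4 each). Sox10, Heyl and Cadm1 were called in limma's test (adjusted p = 0.00499, 0.0422 and 0.0422), whereas Gjc3 and Sema4f were not (adjusted p = 0.058 and 0.0649, limma). The groups did not overlap in any of the 5, so the likeness includes the group difference itself. Sox10 and Gjc3 are also on the list of Schwann cell markers.

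**Figure D3:**
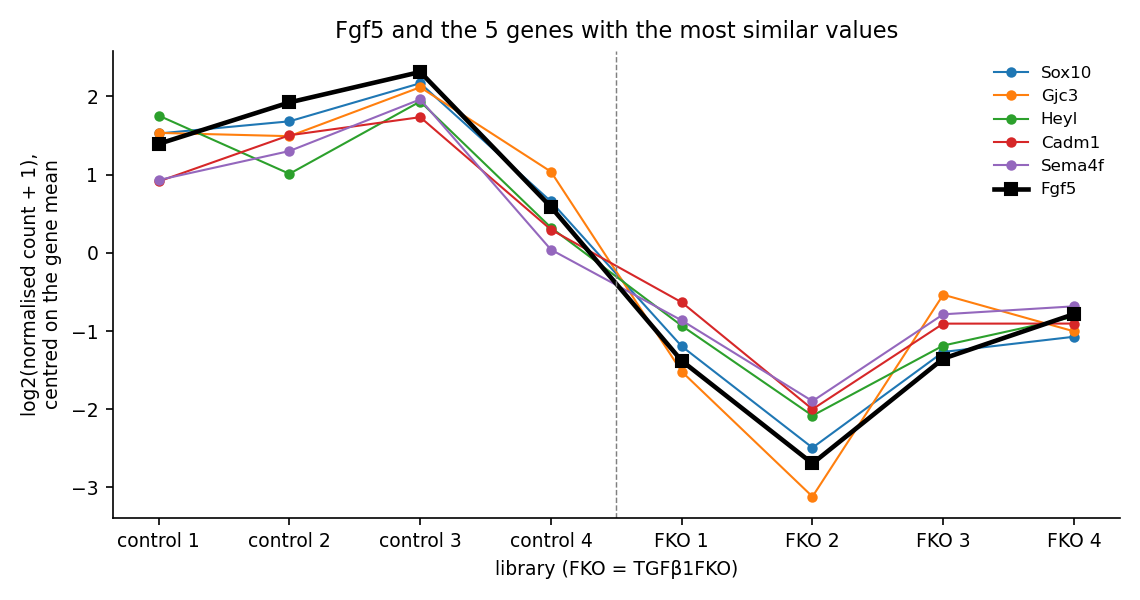
Centred log2 values of Fgf5 (black) and of the 5 genes with the smallest root-mean-square difference from it, in each of the 8 libraries; lines join the values of 1 gene and the dashed line separates the groups. All 6 genes are above their own mean in the control libraries and below it in the TGFβ1FKO libraries, highest in control library 3 and lowest in TGFβ1FKO library 2.

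Some markers of Schwann cells were lower together with Fgf5. Of 15 such markers 14 were measured. The marker lists here and below were chosen with earlier results of these data known. The Schwann cell list also holds Sox10 and Gjc3, which were picked above for their likeness to Fgf5. The counts that follow are therefore a description and no independent support. In limma's test 3 of the 14 were called, Sox10 and Foxd3 among them, beside 0.086% of all genes, and 13 of 14 were lower, the median of their log2 fold changes being -2.04 beside 0.0031 over all genes. At an unadjusted p under 0.05 in limma there were 12 of 14, beside 7.46% of all genes. In edgeR 5 were called, in DESeq2 against 0 7 and in DESeq2 against 0.6 5. The shares of all genes called in these were 0.132%, 0.371% and 0.0993%. The groups did not overlap in 8 of 14, beside 3.79% of all genes. The summed level was 3239, 3064, 3538 and 2394 normalised counts in control libraries 1 to 4, and 2564, 1552, 1496 and 1973 in TGFβ1FKO libraries 1 to 4, so the sums of the groups overlapped. Ngfr, the most abundant marker at 1446 ± 221 in control and 971.2 ± 398.6 in TGFβ1FKO fibroblasts (SD, n = 4 each), made up much of that sum and its groups overlapped. No marker was at 0 in all libraries, but Gjc3 was at 0 reads in TGFβ1FKO library 2 and Gfra3 in TGFβ1FKO libraries 1 and 3. In bulk RNA, fewer cells of a type and less RNA per cell cannot be told apart, and the part of these cells in the Fgf5 result was not tested.

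The fibroblast label held in every library. All 10 fibroblast markers were measured, and Col1a1, the most abundant, averaged 653489 normalised counts in control and 664781 in TGFβ1FKO fibroblasts. Their median log2 fold change was -0.01, with 6 lower and 4 higher, and their summed level was between 1289197 and 1590472 in control libraries and between 1339366 and 1494077 in TGFβ1FKO libraries. Dermal papilla markers, of the cells at the base of the hair follicle, had sums that did not overlap between the groups. They lay at 229.7, 247.6, 266.1 and 198.5 in control libraries 1 to 4 and at 134.8, 127.4, 166.9 and 119.7 in TGFβ1FKO libraries 1 to 4 (two-sided exact permutation test, p = 0.0286), where the same test gave p = 0.0571 for the Schwann cell sums. Of 8 such markers 4 were measured, all 4 lower. Rspo3 was the most abundant at 157.1 ± 11.7 and 95.2 ± 16.7 (SD, n = 4 each). Corin, Wif1, Hhip and Sostdc1 were absent from the expression table, from which the authors left out genes with few reads. The groups did not overlap in 2 of the 4, Rspo3 and Sox2, beside 3.79% of all genes. Sox2, named after its values were seen, had 27.3 ± 16.0 and 4.57 ± 1.602 (SD, n = 4 each; log2 fold change -2.21, adjusted p = 0.13, limma). Limma's test called 0 of the 4, with 2 at an unadjusted p under 0.05, beside 7.46% of all genes. In edgeR and in DESeq2 against 0.6, 0 were called. DESeq2 against 0 called 2, beside 0.371% of all genes. Whether papilla cells were present in the cultures was not tested, nor was their part in the Fgf5 result.

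The summed levels of the other marker lists overlapped between the groups, with p = 0.0571 for the endothelial and the keratinocyte sums in the two-sided exact permutation test. Endothelial markers summed to 772.4 ± 142.5 in control and 592.8 ± 29.7 in TGFβ1FKO fibroblasts (SD, n = 4 each), led by Tek. All 10 genes were measured and all 10 were lower, with 2 at an unadjusted p under 0.05 in limma, beside 7.46% of all genes. Pericyte markers summed to 1581 ± 361 and 1447 ± 184, with 5 of 6 measured, 3 of them lower and 2 higher. The most abundant, Notch3, was among the higher, with means of 617.5 in control and 726.8 in TGFβ1FKO fibroblasts. At an unadjusted p under 0.05 in limma there was 1 of the 5, beside 7.46% of all genes. Keratinocyte markers summed to 124.3 ± 18.6 and 158.8 ± 10.4, led by Krt10. At an unadjusted p under 0.05 in limma there were 2 of 4 measured genes, beside 7.46% of all genes. Of the 4, 2 were higher and 2 lower, with Krt10 among the lower at a log2 fold change of -0.001. The groups did not overlap in 1 of the 4, Dsp, beside 3.79% of all genes. Dsp was not called (22.2 ± 7.36 and 44.8 ± 9.525, SD, n = 4 each; log2 fold change 1.01, adjusted p = 0.334, limma). Krt5, Krt14, Krt15, Krt17, Epcam and Dsg3 were absent from the expression table. Macrophage markers summed to 315.1 ± 26.5 and 300.6 ± 23.8, led by Csf1r, with 4 of 8 measured and Adgre1, Ptprc, Itgam and Fcgr1 absent from the expression table. Melanocyte markers summed to 259.4 ± 51.3 and 264.0 ± 46.9, led by Mitf, with Tyr, Tyrp1 and Dct absent from the expression table. Skeletal muscle markers summed to 744.3 ± 174.1 and 846.1 ± 110.7, led by Acta1, with 3 of 8 measured. Of the 3, 2 were lower and 1 was higher. The higher was Acta1, with means of 663.0 in control and 783.5 in TGFβ1FKO fibroblasts. The groups did not overlap in 1 of the 3, Tnnt3, beside 3.79% of all genes. Tnnt3 was not called (12.5 ± 2.81 and 4.12 ± 2.945, SD, n = 4 each; log2 fold change -1.56, adjusted p = 0.477, limma). Dsp and Tnnt3 were named after their values were seen. Adipocyte markers were measured by Fabp4 alone, at 31.5 ± 16.7 and 17.6 ± 7.45. Kcnj8, Myod1, Myog, Pax7, Myf5, Ckm, Adipoq, Plin1, Lep, Cidec and Retn were also absent from it.

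The nearest measured genes beside Fgf5 on chromosome 5 had overlapping groups. Prdm8, a transcriptional regulator that ends 65.2 kb before Fgf5 on the chromosome, had 23.0 ± 2.84 normalised counts in control and 19.1 ± 2.49 in TGFβ1FKO fibroblasts (SD, n = 4 each; log2 fold change -0.26, adjusted p = 0.826, limma). Mir703, a microRNA gene 198.5 kb after it, had 15.7 ± 3.44 and 10.4 ± 2.09 (SD, n = 4 each; log2 fold change -0.55, adjusted p = 0.703, limma). Neither was called.

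Fgf7 (ENSMUSG00000027208, chr2:126034658-126091185) encodes keratinocyte growth factor, which stromal cells make and epithelial cells receive. It had 1385, 1491, 1314 and 1325 normalised counts in control libraries 1 to 4 and 1330, 1378, 1461 and 1401.5 in TGFβ1FKO libraries 1 to 4. The groups lay over one another, and the log2 fold change was 0.015 with a 95% interval from -0.11 to 0.14 (adjusted p = 0.967, limma). An interval this narrow leaves out the log2 fold change of 0.6 used for calling in either direction.

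Fgf10 (ENSMUSG00000021732, chr13:118669791-118792115), another mesenchymal ligand that acts on epithelium, had 801.8, 855.3, 809.5 and 976.8 normalised counts in control libraries 1 to 4. It had 942.7, 1298, 1075 and 1153 in TGFβ1FKO libraries 1 to 4. All 4 TGFβ1FKO libraries were above the control mean of 860.8 ± 80.8 (SD, n = 4), but control library 4 was above TGFβ1FKO library 1. The log2 fold change was 0.37 (SE 0.09; adjusted p = 0.331, limma), and the two-sided exact permutation test gave p = 0.0571. Fgf10 shares 123 bases of exon with the antisense gene Gm16263, and the libraries did not keep strand, so reads from there cannot be told apart.

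The groups overlapped in Fgf2 and in Fgf18. Fgf2 (ENSMUSG00000037225, chr3:37348346-37410108), a ligand that leaves cells without a signal peptide, ranged from 381.1 to 439.9 normalised counts in control and from 328.4 to 442.6 in TGFβ1FKO libraries. Its log2 fold change was -0.05 with a 95% interval from -0.26 to 0.155 (adjusted p = 0.93, limma). It shares 640 bases of exon with Nudt6 on the opposite strand and 255 with Gm43439, so its reads are uncertain to that extent. Fgf18 (ENSMUSG00000057967, chr11:33117430-33147400, minus strand), a ligand known from cartilage and from resting hair follicles, ranged from 61.9 to 92.8 in control and from 61.8 to 97.35 in TGFβ1FKO libraries. Its log2 fold change was -0.01 with a 95% interval from -0.42 to 0.39 (adjusted p = 0.994, limma).

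To place Fgf5 by abundance, normalised counts were divided by the kb of exon of each gene. Among the 5 listed ligands, the control order of mean levels per kb was Fgf7 at 424.5 ± 24.9, Fgf10 at 187.1 ± 17.6, Fgf18 at 61.9 ± 11.4, Fgf2 at 59.1 ± 3.925 and Fgf5 at 16.5 ± 7.84 (SD, n = 4 each). The libraries of Fgf18 and Fgf2 overlapped, so their order is not settled by these levels, and every other neighbour in this order was apart. In TGFβ1FKO fibroblasts the order was the same, with Fgf7 at 428.8 ± 16.7 per kb and Fgf5 at 1.59 ± 0.918. Fgf5 was last of the 5 in all 8 libraries.

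Fgf21, Fgf16, Fgf1 and Fgf22 were the other secreted ligands measured. In control fibroblasts Fgf5 stood sixth of the 9 by mean level per kb, and its libraries, at 7.50 to 25.7 per kb, overlapped those of Fgf16, the next lower, at 12.55 to 19.8 per kb. In TGFβ1FKO fibroblasts Fgf5 stood last of the 9, and its libraries, at 0.414 to 2.66 per kb, overlapped those of Fgf1 at 1.98 to 3.45 per kb. Fgf21, a hormone-like ligand, was the third most abundant in both groups at 103.8 ± 14.9 and 97.8 ± 12.9 per kb (SD, n = 4 each).

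**Figure D4:**
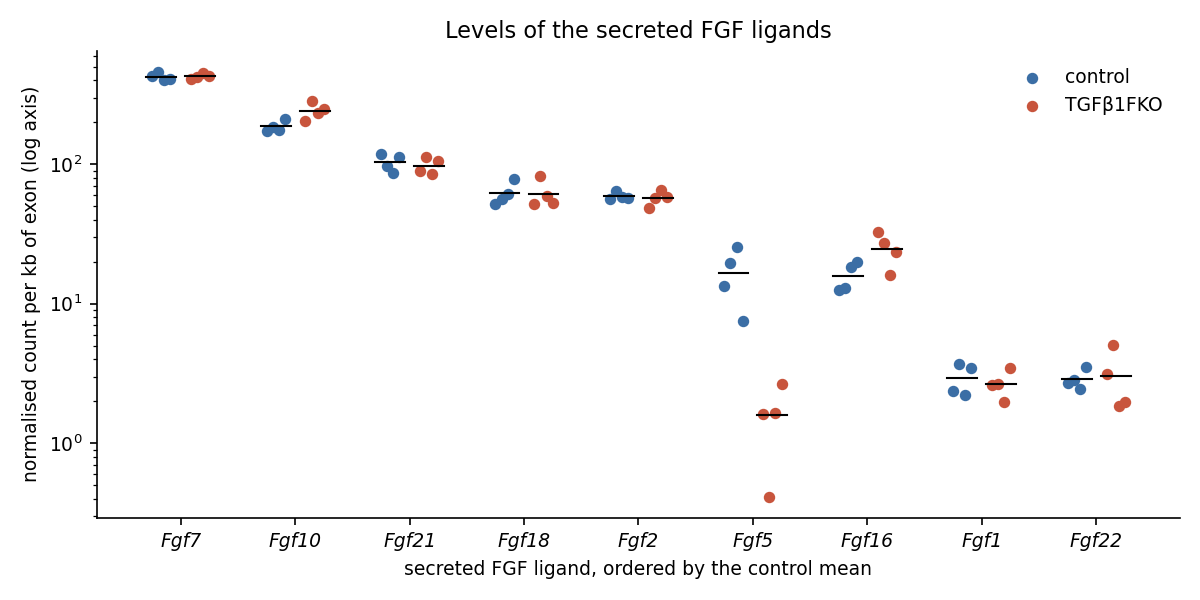
Normalised counts per kb of exon (log axis) of the 9 secreted FGF ligands in each library, blue for control and red for TGFβ1FKO, with black lines for group means, ordered by the control mean. Fgf7 and Fgf10 lead in both groups, and Fgf5 goes from sixth place at 16.5 to last at 1.59 per kb.

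Fgf5 made up 2.22 ± 1.08% of the summed level per kb of the 5 listed ligands in control fibroblasts, between 0.983% and 3.55% in the 4 libraries (SD, n = 4). In TGFβ1FKO fibroblasts it made up 0.2035 ± 0.117%, between 0.0490% and 0.334% (SD, n = 4; two-sided exact permutation test between the groups, p = 0.0286). The ranges did not overlap, but the share was small in each group. The sum of the 5 ligands was 749.1 ± 30.7 per kb in control and 792.1 ± 54.6 in TGFβ1FKO fibroblasts (SD, n = 4 each; two-sided exact permutation test, p = 0.2), and their libraries overlapped. Fgf7 held 56.7 ± 2.56% of the sum in control and 54.3 ± 2.98% in TGFβ1FKO fibroblasts. Fgf10 held 25.0 ± 1.92% and 30.6 ± 2.26%, and its shares, unlike its levels, did not overlap (23.7% to 27.8% against 28.6% to 33.3%), a feature singled out after its values were seen.

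Fgfr1 (ENSMUSG00000031565, chr8:25513654-25575718), the main FGF receptor of mesenchymal cells, had 8624, 7862.5, 7497 and 7929 normalised counts in control libraries 1 to 4. It had 7868, 6615, 8072 and 7132 in TGFβ1FKO libraries 1 to 4. The groups overlapped, the log2 fold change was -0.11 with a 95% interval from -0.26 to 0.04 (adjusted p = 0.745, limma), and the gene stood at the 97.8th percentile of the means of all genes. It shares 164 bases of exon with the antisense gene Gm16159.

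Fgfr2 (ENSMUSG00000030849, chr7:130162451-130266808 in RefSeq on GRCm38.p6) encodes the receptor whose epithelial isoform binds FGF7 and FGF10, and counts per gene do not separate its isoforms. It had 486.9, 438.8, 443.5 and 566.9 normalised counts in control libraries 1 to 4 and 500.7, 652.4, 512.3 and 624.9 in TGFβ1FKO libraries 1 to 4. All 4 TGFβ1FKO libraries were above the control mean, yet control library 4 was above 2 of them. The log2 fold change was 0.24 (SE 0.11; adjusted p = 0.658, limma). In GENCODE M21 1 transcript of the gene runs on into Ctbp2, with which it shares 314 bases of exon, so its length and some of its reads are uncertain.

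Fgfr3 and Fgfrl1 overlapped between the groups. Fgfr3 (ENSMUSG00000054252, chr5:33721674-33737068), a receptor tyrosine kinase best known from cartilage, ranged from 24.95 to 47.7 normalised counts in control and from 32.4 to 79.7 in TGFβ1FKO libraries. Its log2 fold change was 0.39 with a 95% interval from -0.23 to 1.015 (adjusted p = 0.791, limma). That interval is too wide to leave out a log2 fold change of 0.6. Of the Fgfr3 exons, 998 bases overlap G630022F23Rik on the opposite strand. Without TGFβ1FKO library 2, the highest at 79.7, the log2 fold change of Fgfr3 was 0.149, and without control library 1, the lowest at 24.95, it was 0.221. Fgfrl1 (ENSMUSG00000008090, chr5:108692382-108706924), which binds FGF but lacks the kinase domain, ranged from 322.7 to 431.6 in control and from 311.2 to 362.3 in TGFβ1FKO libraries. Its log2 fold change was -0.06 with a 95% interval from -0.28 to 0.155 (adjusted p = 0.916, limma).

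By level per kb of exon the receptors kept 1 order in all 8 libraries. In control fibroblasts Fgfr1 was at 807.9 ± 47.6 per kb, Fgfrl1 at 127.9 ± 18.5, Fgfr2 at 46.9 ± 5.74 and Fgfr3 at 5.20 ± 1.45 (SD, n = 4 each), and no neighbours in this order overlapped. In TGFβ1FKO fibroblasts they were at 751.5 ± 68.1, 121.7 ± 7.57, 55.4 ± 7.48 and 7.05 ± 2.90 per kb (SD, n = 4 each). The distance between Fgfrl1 and Fgfr2 was smaller with another length. Per kb of the longest transcript, a length added after seeing the data, Fgfr2 was at 109.3 ± 13.4 in control and 129.3 ± 17.4 in TGFβ1FKO fibroblasts, and Fgfrl1 at 152.8 ± 22.1 and 145.4 ± 9.07 (SD, n = 4 each). On that scale the libraries of the 2 receptors overlapped in TGFβ1FKO fibroblasts, and 7 of 8 libraries kept the order, with TGFβ1FKO library 2 at 147.3 for Fgfr2 and 147.2 for Fgfrl1. Per kb of exon Fgfr1 held 81.8 ± 2.08% of the summed receptor level in control and 80.2 ± 2.76% in TGFβ1FKO fibroblasts. Fgfr4, the remaining receptor of the family, was at 1.82 ± 1.39 per kb in control and 1.52 ± 1.61 in TGFβ1FKO fibroblasts.

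The other genes of the pathway were taken from 5 lists by role, with 74 of 89 genes measured. Limma's test called 0 of the 74, and so did edgeR and DESeq2 against 0 or against 0.6. At an unadjusted p under 0.05 in limma there were 9 of 74, or 12.2%, beside 7.46% of all genes, and the groups overlapped in all 74, whereas they did not in 3.79% of all genes. Their log2 fold changes ran from -0.60 to 0.61 with a median of 0.03.

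Of the 9 other FGF family genes measured, 3 had higher and 6 had lower values, and the median log2 fold change was -0.08. Fgf16, a secreted ligand, had 26.1 ± 6.06 normalised counts in control and 40.9 ± 11.4 in TGFβ1FKO fibroblasts (log2 fold change 0.61, adjusted p = 0.647, limma). Fgf14, which acts inside cells on sodium channels, had 28.0 ± 10.9 and 17.3 ± 1.88 (log2 fold change -0.60, adjusted p = 0.671, limma). Fgf21 had 98.7 ± 14.15 and 93.0 ± 12.2. Among 13 co-receptors and binding proteins 10 had higher and 3 had lower values, and the median was 0.08. Flrt3, a membrane protein that binds FGF receptors, had 204.2 ± 17.5 and 271.7 ± 49.0 (log2 fold change 0.40, adjusted p = 0.536, limma). Hspg2, which encodes perlecan and was the most abundant of the list per kb, had 29833 ± 5588 and 35269 ± 1996.5 (log2 fold change 0.26, adjusted p = 0.653, limma).

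The 16 enzymes of heparan sulfate split evenly, with 8 lower and 8 higher and a median log2 fold change of 0.01. Ndst2 and Ndst1, which place sulfate on the chain, had log2 fold changes of -0.12 and 0.09 (adjusted p = 0.703 and 0.76, limma). Sulf2, which removes sulfate outside the cell, was the most abundant per kb, at 8080 ± 962 normalised counts in control and 7945 ± 590 in TGFβ1FKO fibroblasts. The 18 transduction genes split into 9 lower and 9 higher, with a median of 0.015. Cbl, a ubiquitin ligase that downregulates receptors, had 1039 ± 78.6 and 1197 ± 102 (log2 fold change 0.20, adjusted p = 0.599, limma). Akt1 was the most abundant per kb, at 6506 ± 273 and 6433 ± 261.

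Among 18 target and feedback genes 12 had higher and 6 had lower values, and the median log2 fold change was 0.05 (with TMM scaling 11 and 7, as Etv5 changed sign). Ccnd1, which encodes cyclin D1, had 5385 ± 664 normalised counts in control and 7231.5 ± 1520 in TGFβ1FKO fibroblasts (log2 fold change 0.41, adjusted p = 0.51, limma). Spred2, an inhibitor of the RAS pathway, had 1139 ± 127 and 1366 ± 135.5 (log2 fold change 0.26, adjusted p = 0.536, limma). Egr1, an early response gene and the most abundant per kb, had 8138 ± 473 and 8825 ± 834 (log2 fold change 0.11, adjusted p = 0.734, limma). None of these 3 genes was called, and the groups overlapped in each.

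**Figure D5:**
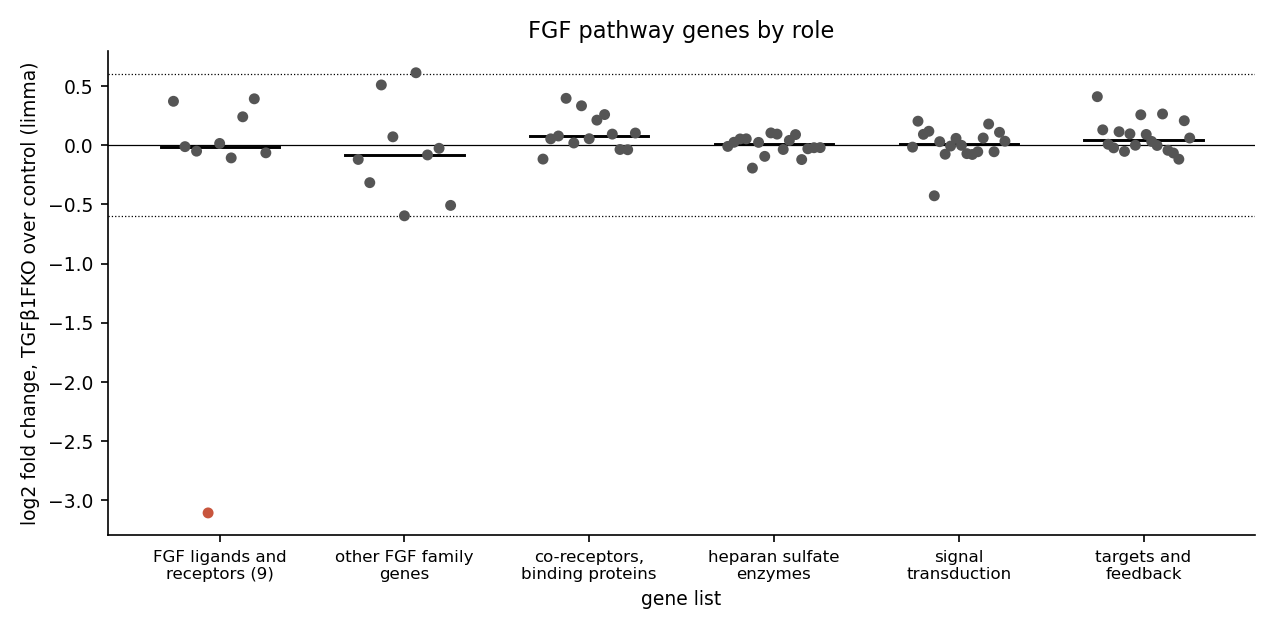
Log2 fold change of TGFβ1FKO over control from limma for each gene of the 9 FGF ligands and receptors and of the 5 pathway lists, with 1 point per gene, black lines for list medians, red for called genes and dotted lines at 0.6 in each direction. Fgf5 at -3.105 stands alone, and the 74 pathway genes lie between -0.60 and 0.61.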

How the data were processed

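RNA of 8 libraries, 4 per group, was sequenced in pairs without strand. Per the submitters' processing notes and the methods, the authors used CASAVA 1.8, HISAT2 2.0.5 on GRCm38, featureCounts 1.5.0-p3 and DESeq2 1.42.0 in R 4.3.2, and left out genes with few reads. The deposited values are a signal, reads divided by a size factor with 0.5 added. The authors' columns of log2 fold change, its error, statistic, p-value and adjusted p-value were not used. After 0.5 was subtracted, 100% of values in each library were whole multiples of 1 read (within 0.1), which gave recovered reads. The lowest summed reads were 41.

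Log2(value + 1) was fitted by limma 3.58.1 (R 4.3.3, trended variance) over 15111 genes, a scale that understates changes of low genes. The fits were tested on simulated data in which every changed gene was more abundant than Fgf5, so that test does not cover a gene this low. Lengths are from GENCODE M21, in which 15098 of these genes were found. Alternatives were edgeR 4.0.16 (20 genes called), DESeq2 1.42.0 (56 against 0, 15 against 0.6), TMM scaling, pseudocounts of 0.5 and 5, a mean of at least 10, the replicate block, other lengths and ligands for shares, and each library left out. Named genes are the 9 members, Tgfb1, called genes or else the 2 with the lowest p of each pathway list, the most abundant of each list, the 5 most like Fgf5 and its neighbours. Some genes that this rule covers are not reported here. Members and lists were chosen with earlier results of these data known.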

Additional observations from a re-analysis of the deposited data

Results flagged for a closer look

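In 40 groups of 4 libraries (the 9 FGF genes, the Fgf5 share and the 10 marker sums in each group), 2 held a library far from the other 3, and chance gives about 1 in 20, or 2.0. The summed keratinocyte markers of control library 4 were at 152.1 normalised counts, while the other control libraries lay between 112.7 and 116.4. The summed macrophage markers of TGFβ1FKO library 3 were at 264.9, while the other TGFβ1FKO libraries lay between 310.7 and 313.5. No FGF gene and no Fgf5 share had such a library.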

How the results depend on the processing

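Fgf5 was called in all 8 other settings that kept every library, with adjusted p-values from 3.54e-07 to 0.0418, and its log2 fold change lay between -3.43 and -2.30 over all settings. With 1 library left out it was called in 2 of 8 cases, with log2 fold changes from -3.43 to -2.725 and adjusted p-values from 0.00682 to 0.214 in limma, so the number of the 9 genes called ranged from 0 to 1. The lowest adjusted p came without control library 4 and the highest without control library 3. The pathway genes called stayed at 0 in every setting. Of all genes tested, 13 were called in limma, 20 in edgeR, 56 in DESeq2 against 0, and between 5 and 32 with 1 library left out; why edgeR and DESeq2 gave other counts was not tested. The replicate number as a block gave 31 genes and changed the call of no FGF gene; same-numbered libraries deviated with correlations of 0.094, -0.104, 0.047 and 0.08, and not every library matched its own number best, so the numbers do not pair the libraries.

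Of 128 values for the other 8 FGF genes, 0 were called and 8 changed sign, all near 0 and with 1 library left out. With 1 library left out, the log2 fold change of Fgf18 ranged from -0.155 to 0.105, of Fgf2 from -0.116 to 0.028, of Fgf7 from -0.008 to 0.053, of Fgfrl1 from -0.107 to 0.032, of Fgf10 from 0.296 to 0.449, of Fgfr1 from -0.149 to -0.053, of Fgfr2 from 0.174 to 0.318 and of Fgfr3 from 0.149 to 0.573. The Fgf5 share moved by less than its spread, to between 1.51% and 2.63% in control and between 0.135% and 0.255% in TGFβ1FKO fibroblasts. Fgf5, with 1 to 6 reads in the TGFβ1FKO libraries, is limited by depth. Fgfr2 per kb of the longest transcript was at 109.3 in control and 129.3 in TGFβ1FKO fibroblasts, beside 46.9 and 55.4 per kb of exon.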
